A study of Hipposideros armiger with 2 samples.

Results

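The transcripts described here are the assembled genes whose best Swiss-Prot protein match names a LINE-1 element, a transposable element, a transposase, a retrotransposon or an endogenous retrovirus. The search took 483 of 55378 assembled genes. One of them, MID1, was taken only because the letters of LINE-1 occur in the protein name Midline-1, a ubiquitin ligase unrelated to transposons. It had 9 counts in replicate 2 and 1 count in replicate 1, and it was left out of every value below, which leaves 482 assembled genes.

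RNA of the leaf-nosed bat Hipposideros armiger was sequenced in 2 libraries of the CW cave, with wild type given as the genotype, liver as the tissue and exposure to heavy metals as the treatment. The study's design describes adult males caught in the wild and does not say which animal gave each library. Replicate 2 held 18778331 expected counts and replicate 1 held 18741210. With 1 group of 2 libraries there was no comparison between conditions, and differences between the libraries are given as ratios of 1 library to the other, with no p-value.

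Transposable elements are stretches of DNA that copy or move themselves within a genome. LINE-1 elements do so through an RNA that encodes ORF1, an RNA-binding protein, and ORF2, an endonuclease and reverse transcriptase. Endogenous retroviruses are remnants of retroviral infections of the germ line and can keep gag, pol and env genes. DNA transposons such as Tigger, Pogo and PiggyBac move through a transposase, and several such proteins now serve as ordinary host genes. Somatic tissues hold most of these elements silent through DNA methylation and heterochromatin, and many of the copies that are transcribed lie within other genes' RNAs.

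The labelled tissue was checked against marker genes. All 10 hepatocyte markers were found, and together they stood at 357 TPM (a length-scaled share of all transcripts) in replicate 2, against 12160 TPM in replicate 1. The 10 markers of lung and airway epithelium summed to 19700 TPM in replicate 2 and 12380 in replicate 1, which goes against a pure liver label in both libraries. No assembled gene carried the name of any of the 6 germ cell markers. RNA from fewer cells of a type and less RNA per cell cannot be told apart in such bulk libraries.

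Transposon and retroviral transcripts took a small share of the RNA, and LINE-1 matches made up most of it. The 482 assembled genes summed to 3538 TPM in replicate 2 and 3057 in replicate 1, or 0.355% and 0.307% of all TPM (mean 0.331% ± 0.0343, SD, n = 2). LINE-1 accounted for 429 of the assembled genes and for 90.2% of that TPM in replicate 2 and 91.4% in replicate 1. The other classes were 17 endogenous retrovirus matches, 26 matches to host genes derived from a transposon, 7 matches to the Pogo genes and the transposase THAP9, and 3 other retrotransposon matches. By expected counts the set held 0.164% of replicate 2 (Wilson 95% interval 0.162% to 0.165%) and 0.142% of replicate 1 (0.140% to 0.143%); these intervals cover counting error only.

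Best matches fell on few species. Human proteins were the best match of 326 assembled genes, mouse proteins of 100 and proteins of the slow loris Nycticebus coucang, a primate, of 54. Cow and the fruit fly Drosophila melanogaster gave 1 each. Such a match does not show the family of the bat element.

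**Figure D1:**
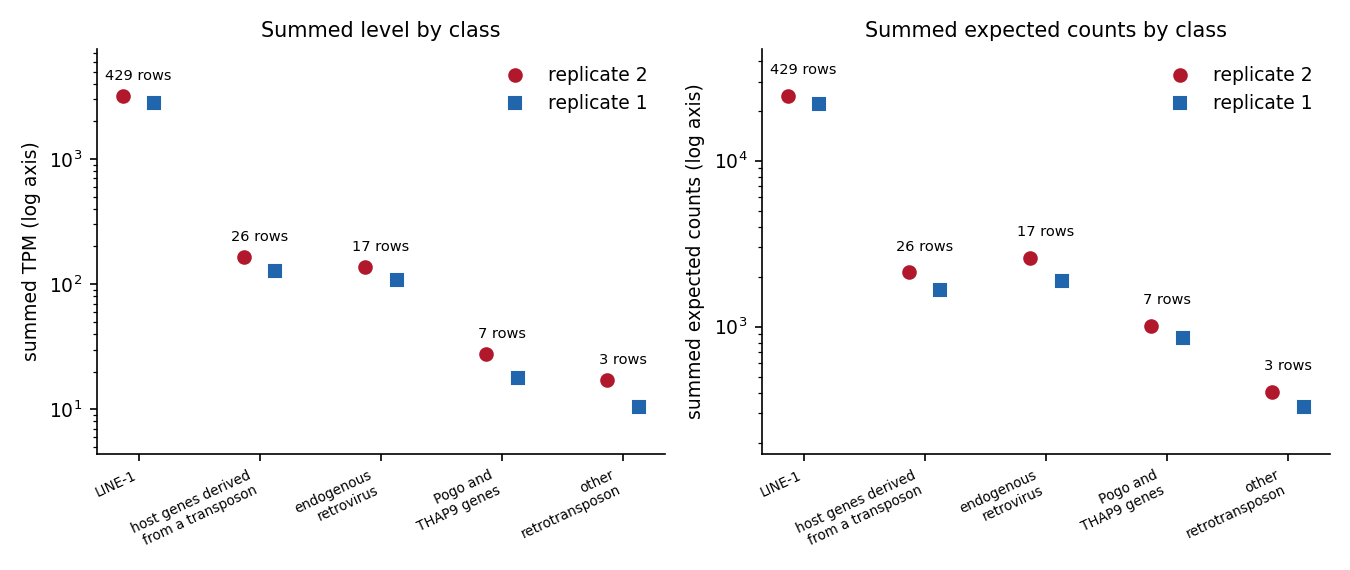
Summed TPM (left) and summed expected counts (right) of the 5 classes in replicate 2 (circles) and replicate 1 (squares), both on log axes, with the number of assembled genes above each class. LINE-1 lies highest on both scales, at 3192 and 2795 TPM, and the endogenous retrovirus class lies below the host genes by TPM but above them by counts.

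The order of the smaller classes depended on the scale. Host genes derived from a transposon summed to 165 TPM in replicate 2 and 127 in replicate 1, above the endogenous retroviruses at 136 and 107 TPM. By expected counts the endogenous retroviruses were higher, with 2596 in replicate 2 and 1876 in replicate 1, against 2126 and 1665 for the host genes. That order by counts also depends on the class borders. POGK, POGZ and THAP9, kept as a separate class, held 1015 counts in replicate 2 and 855 in replicate 1. Joined with them, the host genes would lie above the endogenous retroviruses by counts. Outside the searched descriptions, 16 further matches to retroviruses or intracisternal A-particles held 2146 and 1728 counts. Short assembled genes gain TPM for few counts: among all assembled genes over 100 counts, the median TPM per count in replicate 2 was 0.849 at 200 to under 300 bases and 0.0407 at 1000 to under 2000 bases. In replicate 1 the same medians were 0.782 and 0.0374.

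LINE-1 transcripts were mostly short pieces. Their median length was 447 bases, with quartiles of 288 and 718 and a range of 202 to 5106. The 25298 assembled genes with another Swiss-Prot match had a median of 711 bases, and the 29598 with none had 342. Only 9 LINE-1 assembled genes reached 2000 bases, and they held 6790 of the 24571 LINE-1 counts in replicate 2 and 5093 of 21843 in replicate 1. At the other end, 113 LINE-1 assembled genes under 300 bases held 849 and 948 counts but 860 and 844 TPM in replicates 2 and 1.

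**Figure D2:**
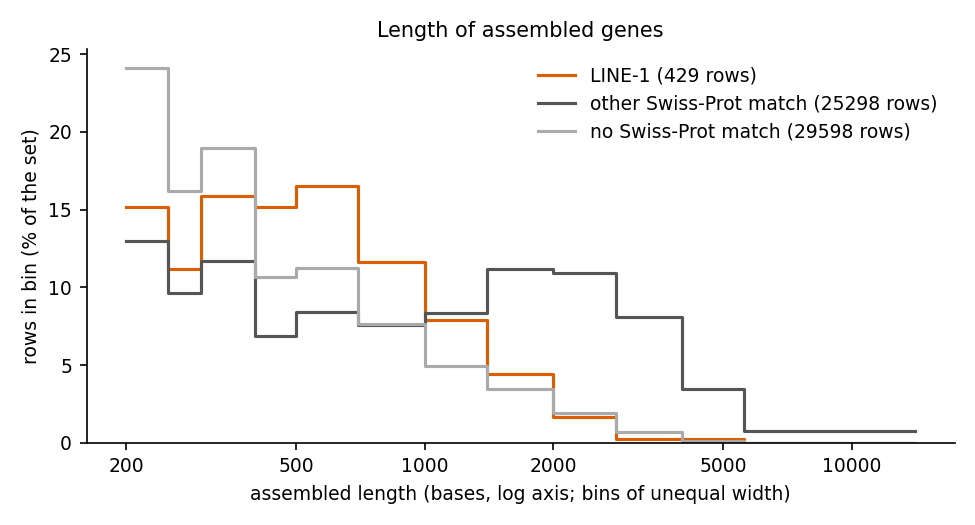
Share of assembled genes per length bin (log axis, bins of unequal width) for LINE-1 matches, for assembled genes with another Swiss-Prot match and for those with none. LINE-1 lengths fall off above 1000 bases, with a median of 447, whereas the other named genes spread to longer lengths, with a median of 711.

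ORF2 outnumbered ORF1 among LINE-1 matches. The catalytic ORF2 protein, or the reverse transcriptase homolog of the slow loris, was the best match of 390 assembled genes, and the RNA-binding ORF1 protein of 39. ORF2 matches summed to 2955 TPM in replicate 2 and 2563 in replicate 1, against 237 and 232 TPM for ORF1 matches, a ratio of 12.5 and 11.0. On expected counts, which also grow with length, the ratio was 31.1 in replicate 2 and 18.6 in replicate 1. Both sums also grow with the number of matches. Much of the ORF2 level lay in matches without a domain label of reverse transcriptase, endonuclease or Transposase_22. The 288 without such a label summed to 2422 TPM in replicate 2 and 2088 in replicate 1. The 102 with one summed to 533 and 475 TPM, whereas all 39 ORF1 matches were labelled. Before scaling between the libraries, ORF1 counts were 765 in replicate 2 and 1113 in replicate 1, while ORF2 counts were 23806 and 20730. On scaled counts, the 160 tested ORF2 matches had a median log2 ratio of replicate 2 over replicate 1 of 0.01. For the 12 tested ORF1 matches it was -0.23.

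The ORF1 counts turned on a few assembled genes. TRINITY_DN13870_c0_g8, an ORF1 match of 1339 bases, had 7 counts in replicate 2 and 232 in replicate 1. The mouse-like ORF1 match TRINITY_DN525_c2_g1, of 447 bases, had 2 and 82.9 counts. The ORF1 match with the highest TPM, TRINITY_DN7111_c1_g1, went the other way, with 73.4 TPM in replicate 2 and 37.4 in replicate 1, from 83.3 and 47.8 counts.

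By best-match species, LINE-1 levels were 2103 TPM in replicate 2 and 1866 in replicate 1 for the 277 human matches. The 98 mouse matches stood at 785 and 676 TPM and the 54 slow loris matches at 304 and 254 TPM. All 3 groups were higher in replicate 2 by TPM, and their median log2 ratios of scaled counts lay close to 0, between -0.01 and 0.03. Within ORF1, the 10 mouse matches had 33.1 TPM in replicate 2 and 67.5 in replicate 1, whereas the 29 human matches had 204 and 165 TPM. This contrast held for TPM only. Expected counts were lower in replicate 2 for both, at 115 and 244 for mouse and 650 and 869 for human matches. Median log2 ratios were -0.21 over 5 tested mouse matches and -0.24 over 7 tested human matches.

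Protein domain labels in the deposited tables were complete for ORF1 matches and sparse for ORF2 matches. All 39 ORF1 matches carried the label Transposase_22, the domain of the LINE-1 ORF1 protein. Among the 390 ORF2 matches, 53 carried RVT_1 (reverse transcriptase), 46 Exo_endo_phos and 2 Exo_endo_phos_2 (endonuclease), and 1 Transposase_22, while 264 had no label. Another 24 carried labels of unrelated domains, led by Na_sulph_symp of sodium-sulfate transporters with 13 and BAR_3_WASP_bdg with 7. LINE-1 matches with no label summed to 2045 TPM in replicate 2 and 1756 in replicate 1. Those with an unrelated label summed to 377 and 332 TPM, and those with a LINE-1 protein domain label to 770 and 707 TPM. No source used here says how the labels were assigned.

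A small number of assembled genes held much of the LINE-1 count. The highest held 6.94% of LINE-1 counts in replicate 2 and 6.35% in replicate 1, the 10 highest held 43.2% and 37.6%, and 15 and 19 of the 429 assembled genes held 50% of them. The 4 with the highest mean TPM were all ORF2 matches without a label of a LINE-1 protein domain. TRINITY_DN679_c0_g1 carried Na_sulph_symp, and the others had no domain label. TRINITY_DN10704_c0_g1, of 318 bases, had 149.6 TPM in replicate 2 and 109 in replicate 1, from 173 and 144 counts. It ranked 585th of 55378 assembled genes by mean TPM.

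Longer copies with many more counts came next. TRINITY_DN679_c0_g1, of 1170 bases, had 154 TPM in replicate 2 and 93.1 in replicate 1 from 1689 and 1262 counts. TRINITY_DN7474_c0_g1, a mouse-like match of 2403 bases with 11 assembled isoforms, had 137 and 93.7 TPM from 1209 and 889 counts. TRINITY_DN3597_c0_g1, of 722 bases, had 99.8 and 91.3 TPM from 335 and 317 counts. On scaled counts these 4 lay close together in both libraries, with log2 ratios between -0.18 and 0.17.

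The longest LINE-1 assembled gene had a TPM near the median of the LINE-1 class in both libraries, but many counts. TRINITY_DN34447_c0_g1, of 5106 bases, stood at 3.51 TPM in replicate 2 and 2.78 in replicate 1, from 393 and 350 counts. It was named for its length after its values were seen.

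Assembled copies were linked to each other and to other genes in the assembly. The 429 LINE-1 assembled genes fell into 285 Trinity components, the assembler's groups of connected sequence, and 83 components held more than 1. Among named genes outside the transposon set, 4507 of 19024 components held more than 1, so such links are not particular to LINE-1. Another named gene outside the transposon set lay in 41 of the LINE-1 components, which held 57 of the LINE-1 assembled genes. For this second link no share among other genes was computed. An expected count that was not a whole number (tolerance 0.001) in either library marks reads shared between features, and this held for 45.0% of LINE-1 and 45.9% of all assembled genes. The LINE-1 share was thus near that of all genes. Apart from these shares, levels of single LINE-1 copies are uncertain, since the counting may divide reads among copies that are nearly identical.

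The libraries were next compared for each assembled gene as the log2 ratio of replicate 2 over replicate 1. Counts were scaled with TMM factors, a pseudocount of 1 CPM (library-scaled counts) was added, the median of all assembled genes was removed, and only those with a mean of at least 1 CPM were kept. The pseudocount understates changes of low genes. Of the 482 members, 194 passed this filter, 172 of them LINE-1. Their median log2 ratio was 0.01, with quartiles of -0.18 and 0.20, against a median of 0.00 and quartiles of -0.19 and 0.15 over all 22025 assembled genes tested.

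Of the 194 tested members, 15 were over 2-fold lower in replicate 2, against 6.81% of all assembled genes tested, and 0 were over 2-fold higher, against 0.0999% of all. The 15 make up 7.73% of the tested members, a share near that of all genes. All 15 were LINE-1, which is 8.72% of the 172 tested LINE-1 copies. They held 255 counts in replicate 2 and 2143 in replicate 1, or 1.04% and 9.81% of LINE-1 counts. The other 157 tested LINE-1 copies held 22997 and 17955 counts; 86 of them had a ratio above 0, and 151 lay within 1.5-fold.

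**Figure D3:**
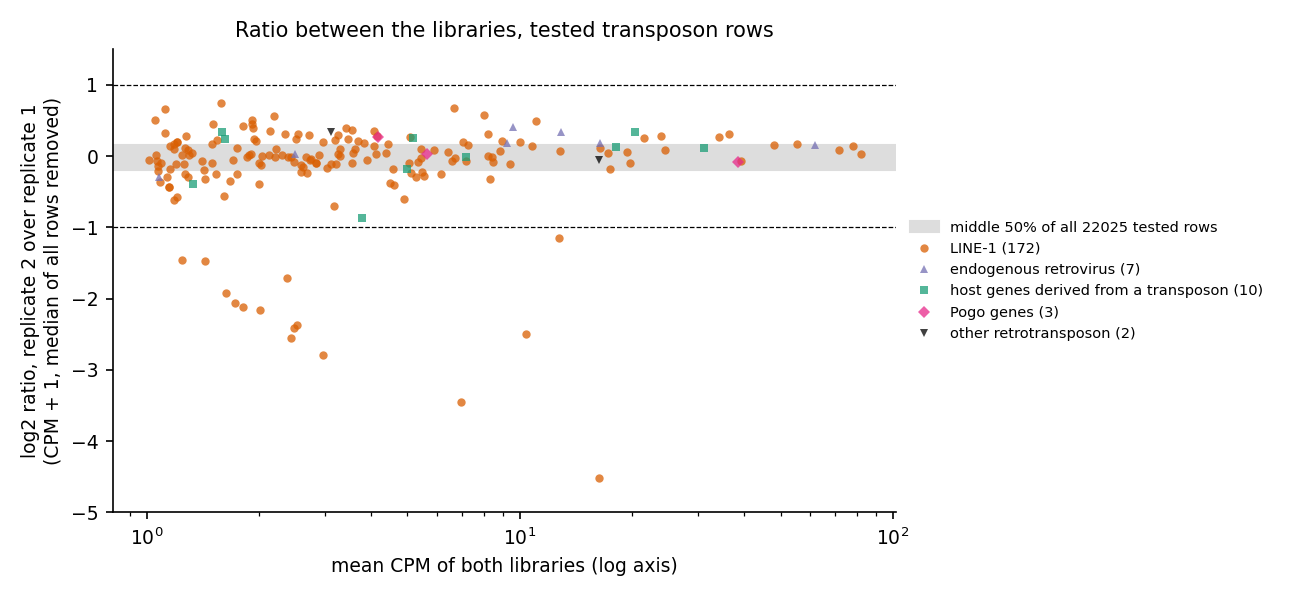
Log2 ratio of replicate 2 over replicate 1 against mean CPM (log axis) for the 194 tested members, by class, with the middle 50% of all 22025 tested assembled genes in grey and dashed lines at 2-fold. Most points lie within the lines, and the 15 points below the lower line are all LINE-1, down to -4.52.

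One LINE-1 copy was over 16-fold lower with the pseudocount of 1 CPM, against 0.772% of all assembled genes tested. This was TRINITY_DN755_c6_g1, an ORF2 match of 1256 bases with a reverse transcriptase label, with 9 counts in replicate 2 and 547 in replicate 1 (log2 ratio -4.52). The next lowest were the ORF1 match TRINITY_DN13870_c0_g8 (-3.44), TRINITY_DN34779_c0_g1 (-2.79) and TRINITY_DN25643_c2_g1 (-2.55). A pseudocount of 0.1 put all of these named copies past 16-fold, with log2 ratios of -5.90, -4.96, -5.91 and -5.63 in the same order. The share of all genes past 16-fold was not computed at that setting.

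Both of the last were listed at 0 in replicate 2, so their fitted ratios depend on the pseudocount. TRINITY_DN34779_c0_g1, of 242 bases, had 101 counts and 88.8 TPM in replicate 1 and was at least 40.8-fold lower in replicate 2 against a floor of 3 counts in that library. TRINITY_DN25643_c2_g1, of 661 bases with a reverse transcriptase label, had 83.2 counts in replicate 1 and was at least 33.5-fold lower by the same floor.

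At the upper end no LINE-1 copy reached 2-fold with the pseudocount of 1 CPM. The highest ratios were 0.74 for TRINITY_DN20869_c0_g1 (46 counts in replicate 2, 16 in replicate 1), 0.67 for TRINITY_DN3441_c3_g1 (174 and 83.7), 0.66 for TRINITY_DN25992_c0_g2 (33.4 and 11.2) and 0.57 for TRINITY_DN7896_c1_g2 (202 and 107). All 4 are ORF2 matches with best matches in human. With a pseudocount of 0.1, TRINITY_DN20869_c0_g1 (log2 ratio 1.17) and TRINITY_DN25992_c0_g2 (1.19) did pass 2-fold.

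Some low LINE-1 copies shared a component, as seen after their values were known. In component TRINITY_DN13870 the ORF1 match above, the ORF2 match TRINITY_DN13870_c0_g5 (12 counts in replicate 2, 71.0 in replicate 1) and the ORF2 match TRINITY_DN13870_c0_g4 (0 and 16) were all lower in replicate 2 in raw counts. In component TRINITY_DN4704 most copies were lower too. TRINITY_DN4704_c0_g3 had 2 counts in replicate 2 and 67 in replicate 1, and TRINITY_DN4704_c0_g4 had 1 and 57.85. TRINITY_DN4704_c0_g1 (0 and 4), TRINITY_DN4704_c0_g2 (0 and 9) and TRINITY_DN4704_c2_g1 (1 and 15) were also lower. By contrast, TRINITY_DN4704_c0_g5 had 99.6 and 90.1, and the 217-base TRINITY_DN4704_c3_g1 had 3.56 and 4.77. Copies joined in 1 component therefore did not all move together.

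The low copies were also counted by domain label, a grouping chosen after the values were seen, so the counts are a description only. Of 56 tested LINE-1 copies with a label of a LINE-1 protein domain (reverse transcriptase, endonuclease or Transposase_22), 12 were over 2-fold lower in replicate 2, or 21.4%. Among the 104 tested copies with no label the count was 2 (1.92%), and among the 12 with a label of another domain it was 1. The median ratios were -0.01 with a LINE-1 label and 0.01 with none.

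The same counts were made by length. At 1000 to under 2000 bases, 6 of 19 labelled copies were lower, against 0 of 32 without a LINE-1 label, and at 500 to under 1000 bases the counts were 5 of 24 and 1 of 46. At 300 to under 500 bases they were 1 of 8 and 0 of 22, and under 300 bases 0 of 3 and 2 of 9. Outside the transposon set, 7.39% of tested assembled genes with a domain label and 6.05% of those with none were over 2-fold lower. At 1000 to under 2000 bases these shares outside the set were 5.91% and 2.81%, so labelled genes there also had the higher share. No test of the difference was made, since 2 libraries give no replicate check.

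Many low LINE-1 copies were detected in replicate 1 only. Of the 429, 338 had a count above 0 in replicate 2 and 400 in replicate 1. A value of 0 in replicate 2 with a count in replicate 1 was found for 68 copies, or 15.9%, against 9.46% of all 55378 assembled genes. The reverse pattern was found for 6 copies, or 1.40%, against 3.2% of all. Depth limits these calls, since 29 of the 68 had at most 3 counts in replicate 1, and the median was 4.

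The excess over other assembled genes varied with length. Under 300 bases, 17.7% of LINE-1 copies and 16.1% of assembled genes outside the transposon set had this pattern. At 300 to under 500 bases the shares were 22.6% and 12.2%, and at 500 to under 1000 bases 14.9% and 6.15%. None of the 62 LINE-1 copies of 1000 bases or more was at 0 in replicate 2. Outside the set the shares were 0.929% at 1000 to under 2000 bases and 0.104% at 2000 or more. The count of 0 thus lies near the shares of other genes. With only those above 3 counts in replicate 1, 39 of 340 LINE-1 copies (11.5%) and 6.98% of assembled genes outside the set remained.

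**Figure D4:**
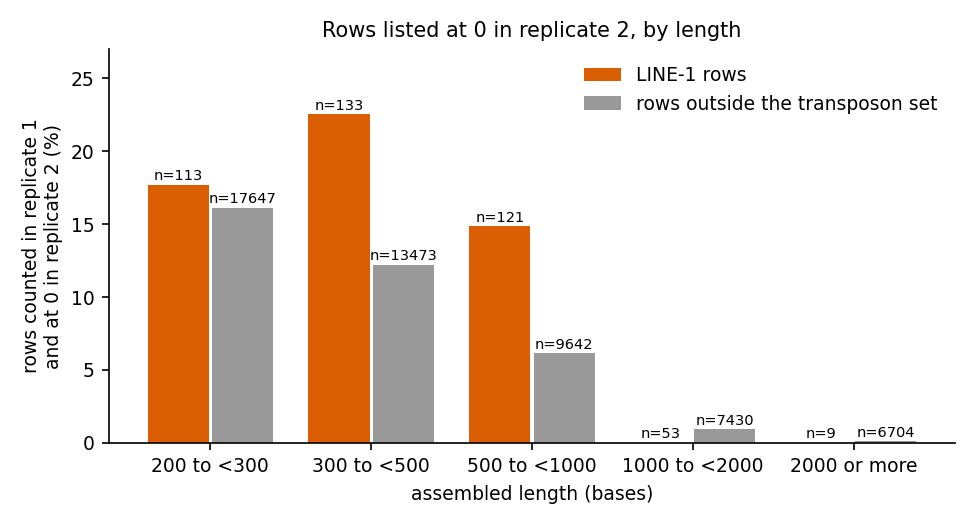
Share of assembled genes at 0 in replicate 2 with a count in replicate 1, by length bin, for LINE-1 copies and for assembled genes outside the transposon set, with their numbers above the bars. The shares are 17.7% and 16.1% in the shortest bin and differ most at 300 to under 500 bases, at 22.6% and 12.2%.

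Hepatocyte markers differed strongly between the libraries. All 10 were over 2-fold lower in replicate 2, with log2 ratios from -5.61 to -1.53 and a median of -4.43, while the 9 tested lung and airway markers had ratios from 0.09 to 0.23. The low LINE-1 copies were picked for being lower in replicate 2, so a direction shared with the hepatocyte markers was fixed by that choice. Large shifts mostly went this way: 6.81% of all tested genes lay past 2-fold on the lower side, beside 0.0999% on the higher side. The part of the marker differences in the LINE-1 differences was not tested.

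Endogenous retrovirus matches were few and led by env genes. Of the 17, 11 matched an Env protein, the surface protein by which retroviruses enter cells, 5 a Pol protein, which holds the reverse transcriptase, and 1 a Gag protein, which forms the particle core. Env matches summed to 91.8 TPM in replicate 2 and 76.3 in replicate 1, Pol matches to 40.8 and 27.9 TPM, and the Gag match stood at 3.89 and 2.79 TPM. The human group names below are best matches and do not place the bat sequences in those groups.

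One copy held more counts than all the others together. TRINITY_DN8804_c0_g1, a match to the Env protein of ERVS71-1, is 3175 bases long with 37 assembled isoforms and carries the retroviral coat label TLV_coat. It had 43.5 TPM in replicate 2 and 39.8 in replicate 1, from 1349 and 1000 counts, of 2596 and 1876 in the class. Its component also held TRINITY_DN8804_c0_g2, which lies outside the searched descriptions and matched the Pro-Pol protein of koala retrovirus, with 19.6 and 16.7 counts. A second ERVS71-1 match, TRINITY_DN1974_c0_g3 of 1230 bases, had 12.6 and 8.59 TPM from 204 and 146 counts.

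Group K matches made up 9 of the 17 but summed to only 55.1 TPM in replicate 2 and 41.9 in replicate 1. TRINITY_DN10836_c0_g1, named for the Pol protein of ERVK-7, was the highest of them at 30.9 and 16.2 TPM, from 300 and 192 counts, although its domain label was GP41, an envelope domain. TRINITY_DN34251_c0_g2, an ERVK-9 Env match of 313 bases, had 9.10 and 9.85 TPM from only 18 and 22 counts. The ERVK-7 Gag match TRINITY_DN43022_c0_g1 had 52 counts in replicate 2 and 42 in replicate 1.

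None of the 7 tested endogenous retrovirus copies was 2-fold apart between the libraries, beside 6.81% of all tested genes lower and 0.0999% higher, and 7 copies are too few to read this count against those shares. Their log2 ratios ran from -0.29 to 0.41, with a median of 0.19 beside 0.00 for all genes tested. The remaining 10 were too low for the filter, and TRINITY_DN29968_c0_g1, an ERVPABLB-1 match of 398 bases, was listed at 0 in replicate 2 with 1 count in replicate 1.

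Host genes that derive from transposons were measured at low levels. Of the 12 gene names in this group and in the classes of Pogo, THAP9 and gypsy-type proteins, 9 are symbols that RefSeq lists for the assembly ASM189008v1 of this bat; TIGD1, PGBD1 and RGAG4 are not listed there. Matches to TIGD1, named for its likeness to the Tigger transposase, were spread over 13 assembled genes of 205 to 2400 bases in 9 Trinity components. They summed to 95.8 TPM in replicate 2 and 71.4 in replicate 1 (mean 83.6 ± 17.2, SD, n = 2). Whether they belong to a single host gene or to several Tigger-like copies cannot be told from a best match.

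Most TIGD1 counts came from 3 long copies. TRINITY_DN1855_c0_g1, of 2400 bases with the transposase label DDE_1, had 669 counts in replicate 2 and 509 in replicate 1. TRINITY_DN8401_c0_g1, of 1770 bases with the DNA-binding label CENP-B_N, had 391 and 296 counts, and TRINITY_DN22982_c0_g1, of 1992 bases, had 147 and 123. The other 10 matches were at most 645 bases long. Log2 ratios of the 3 long copies were 0.12, 0.12 and -0.01.

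L1TD1, an RNA-binding protein that arose from a LINE-1 ORF1, had 5 assembled genes, all labelled Transposase_22. They summed to 42.2 TPM in replicate 2 and 35.7 in replicate 1, but to 90.5 and 119 counts, so that level and counts lay in opposite order. The TPM came mostly from the 252-base TRINITY_DN4570_c0_g3, at 34.3 and 17.2 TPM from 39 and 22.0 counts. TRINITY_DN3029_c0_g3, of 675 bases, had 48.5 counts in replicate 2 and 87.9 in replicate 1 (log2 ratio -0.87). Whether these are L1TD1 or LINE-1 ORF1 copies cannot be told from a best match.

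The Pogo genes were better covered. POGK, which joins a Pogo transposase to a KRAB domain, had 777 counts in replicate 2 and 682 in replicate 1, nearly all in the 3762-base TRINITY_DN3351_c0_g1 (770 and 674). POGZ, a zinc finger protein that binds heterochromatin protein HP1, had 221 and 160 counts over 4 assembled genes, led by TRINITY_DN44425_c0_g1 (118 and 95.1) and TRINITY_DN44425_c0_g4 (96 and 62.9). A shorter match, TRINITY_DN44425_c0_g2, had 7 and 1. Summed by name, the log2 ratios were -0.08 for POGK and 0.18 for POGZ.

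The other names of transposon origin lay lower by TPM. TIGD5 had 7.65 TPM in replicate 2 and 4.54 in replicate 1, and RGAG4, a gag-derived protein of retrotransposon origin, 7.38 and 4.19 TPM from 470 and 304 counts. GIN1, an integrase-like protein of gypsy origin, had 5.60 and 1.60 TPM. Of this, the 220-base TRINITY_DN40453_c0_g1 gave 2.64 TPM in replicate 2 from 2 counts and was listed at 0 in replicate 1. The 1377-base TRINITY_DN40453_c0_g2 gave 2.96 and 1.60 TPM from 74 and 45.0 counts. PGBD1 (3.92 and 3.08 TPM), TIGD4 (3.28 and 2.82), TIGD2 (2.38 and 3.62) and TIGD7 (2.25 and 1.26) followed.

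THAP9, a P element-like transposase, was lowest at 0.92 and 0.73 TPM, from 17 and 13 counts. Neighbours in this order are not separated beyond the spread of the 2 libraries in several cases, such as TIGD5 (6.10 ± 2.20 TPM) and RGAG4 (5.79 ± 2.26 TPM). PGBD1, TIGD2 and THAP9 were too low for the ratio. None of the other names was 2-fold apart on scaled counts, with ratios from -0.56 for L1TD1 to 0.37 for GIN1. Of all tested genes, 6.81% were over 2-fold lower and 0.0999% higher, and these names are too few to read against those shares.

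**Figure D5:**
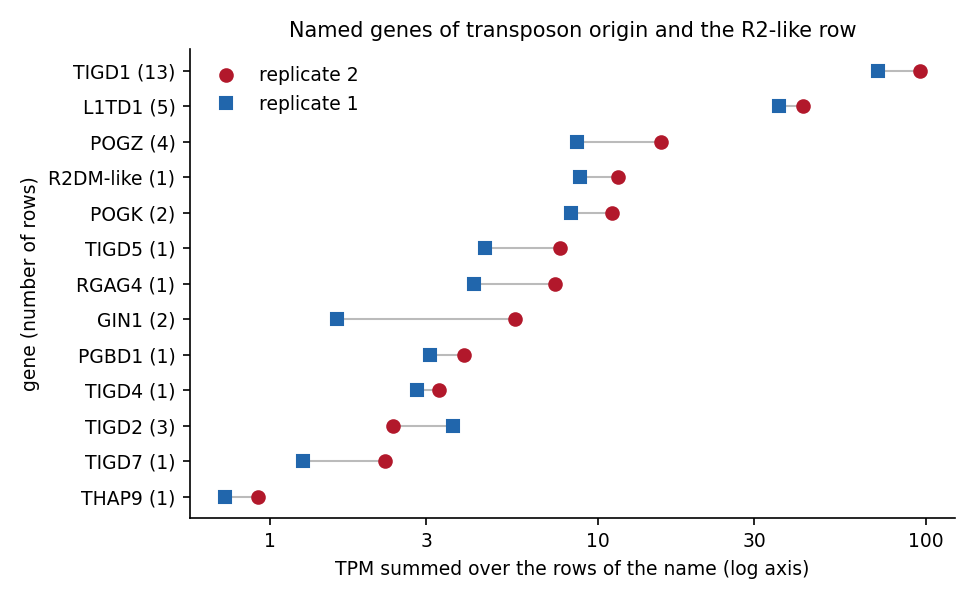
Summed TPM (log axis) of each named gene of transposon origin, and of the match to the fly R2 element, in replicate 2 (circles) and replicate 1 (squares), with the number of assembled genes in brackets. TIGD1 is highest at 95.8 and 71.4 TPM, THAP9 lowest at 0.92 and 0.73 TPM, and TIGD2 is the one name that is lower in replicate 2.

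One assembled gene matched a retrotransposon of another class. TRINITY_DN9121_c0_g1, of 1549 bases with a reverse transcriptase label, matched the Pol protein of R2DM, an element known from ribosomal RNA genes of Drosophila melanogaster. It had 11.6 TPM in replicate 2 and 8.84 in replicate 1, from 329 and 283 counts, with a log2 ratio of -0.05. A best match to a fly protein does not place the transcript in an R2 element.

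Genes that silence or restrict transposons were described from 5 lists, of which 48 of 72 members were found and 37 tested. One was over 2-fold lower in replicate 2, beside the 6.81% of all tested, and 0 were over 2-fold higher, beside 0.0999%. Their median log2 ratio was 0.02. The 1 lower gene was TRIM28, the corepressor that KRAB zinc finger proteins recruit, with 16 counts in replicate 2 and 55.8 in replicate 1 over 5 assembled genes (log2 ratio -1.27).

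All 16 members of the heterochromatin list were at 1 TPM or more in both libraries. TASOR and MPHOSPH8, both of the HUSH complex that represses LINE-1, were at 33.0 and 25.7 TPM and at 24.9 and 23.1 TPM in replicates 2 and 1. EHMT2, a histone H3 lysine methyltransferase, was at 23.9 and 13.8 TPM. The 15 tested members had a median log2 ratio of 0.03.

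DNA methylation genes were found for 7 of 11 names. MBD2, which binds methylated DNA, was at 120.5 TPM in replicate 2 and 92.4 in replicate 1. DNMT1, the maintenance methyltransferase, was at 12.2 and 9.10 TPM, while TET2, which oxidises methylcytosine, rested on 6 and 1 counts. The median ratio over 4 tested members was -0.04.

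The piRNA pathway, which silences transposons chiefly in the germ line, was found for 6 of 16 names, with 4 at 1 TPM or more in both libraries. TDRD7 led with 12.9 TPM in replicate 2 and 7.08 in replicate 1, from 253 and 207 counts. MAEL was at 8.22 and 4.34 TPM from 31 and 16 counts, and TDRD5 at 3.68 and 9.15 TPM from only 5 and 14. The 3 tested members had a median ratio of 0.17.

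Restriction and sensing genes were present in both libraries. BST2, which tethers virus particles to the cell, was at 77.9 TPM in replicate 2 and 64.7 in replicate 1. The RNase H2 subunits RNASEH2A and RNASEH2C were at 60.0 and 42.8 TPM and at 30.7 and 37.0 TPM. The median ratio was -0.07 over the 10 tested restriction genes and 0.02 over 5 sensing genes, whose highest members were STING1 (12.5 and 10.1 TPM), ZBP1 (6.27 and 3.46) and MAVS (6.22 and 3.07). None of these was 2-fold apart.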

How the data were processed

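Poly(A) RNA was sequenced from 2 libraries of 1 group. Each library has a deposited table, and both list identical assembled genes. The names are those of a Trinity assembly, with cutadapt 1.9 given in the submitters' processing notes; the quantifier and the role of the mm10 build, named for replicate 1 only, are not given in the sources used here. The columns marked as counts per the file headers hold expected counts with decimals and were rounded before scaling. The other deposited value column was read as TPM, since it sums to 996239 in replicate 2 and 996837 in replicate 1; its header names no unit.

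Members were matched by description and classed by words in it. TMM factors (edgeR 4.0.16, R 4.3.3) were 1.0993 for replicate 2 and 0.9096 for replicate 1; DESeq2 1.42.0 size factors were an alternative. Ratios were tested on simulated data. Members, lists, classes and the rule for named genes were chosen with earlier results of these data known. That rule took the 4 highest of each class, host genes at 1 TPM or more, the 4 lowest and 4 highest ratios, and the 3 highest of each pathway list; others were named after their values were seen. Gene lists were searched by symbol, with older symbols for CGAS, STING1, TASOR and RESF1. No label says that the libraries come from separate animals, so the SD may be technical. No transcript sequences were used here. Python 3.11.15 with pandas 2.3.3, numpy 2.4.6, scipy 1.17.1 and matplotlib 3.10.9 was used.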

Additional observations from a re-analysis of the deposited data

How the results depend on the processing

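The mean share of TPM, 0.331%, was 0.153% of expected counts, 0.448% without the 10 highest assembled genes in the total, and 0.274% among those of at least 300 bases, a setting chosen after seeing the data. Without each replicate in turn it ranged from 0.307% to 0.355%. A rate from counts and length gave 2021 in place of 2994 TPM for LINE-1, 99.6 in place of 122 for endogenous retroviruses, 111 in place of 146 for host genes and 20.1 in place of 13.8 for other retrotransposons. At 300 bases or more LINE-1 summed to 2142 and host genes to 96.9. Without their highest member, endogenous retroviruses summed to 80.1, the Pogo and THAP9 class to 13.6 and other retrotransposons to 3.60. The settings by length or without a member leave assembled genes out by construction; the cause of the other shifts was not tested.

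The 15 members over 2-fold lower in replicate 2 were 23 of 459 (5.01%, beside 4.18% of all genes) when no low member was left out and 3 of 31 (9.68%, beside 4.6% of all) when the mean had to reach 10 CPM; the counts over 2-fold apart were the same 23 and 3. Members over 2-fold higher were 2 with a pseudocount of 0.1, namely TRINITY_DN20869_c0_g1 and TRINITY_DN25992_c0_g2. The median ratio was 0.21 with library size scaling alone, where that of all genes was 0.23. LINE-1 copies at 0 in replicate 2 were 39 when over 3 counts were asked for in replicate 1. Other settings, including DESeq2 size factors, moved no count by over 1.5 times. No paired analysis was possible because both libraries belong to the same group. With 1 library against 1, the spread between animals is unknown, and counts of 3 or fewer limit calls for single copies.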

Other observations

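Retroviral transcripts lay outside the searched descriptions too. A retrovirus or an intracisternal A-particle was the best-match source of 16 assembled genes, which held 2146 counts in replicate 2 and 1728 in replicate 1. The largest was TRINITY_DN677_c0_g1, of 4982 bases, a match to the Pro-Pol protein of koala retrovirus, a gammaretrovirus, with 19.9 TPM in replicate 2 and 12.4 TPM in replicate 1, from 1528 and 1072 counts (log2 ratio 0.24). In contrast, TRINITY_DN17593_c0_g1, of 1017 bases, a match to the Gag protein of a simian retrovirus, had 37 counts in replicate 2 and 145 in replicate 1 (log2 ratio -1.76). TRINITY_DN11758_c0_g1, of 1338 bases, matched a transposon-derived protein of Caenorhabditis elegans, with 279 and 295 counts. These were named after their values were seen.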
